A study of Mus musculus with 24 samples.

Results

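The 10 genes described here encode the major heat shock protein 70 (HSP70) and heat shock protein 90 (HSP90) chaperones of mouse cells: *Hspa2*, *Hspa1l*, *Hspa4l*, *Hspa4*, *Hspa5*, *Hspa8*, *Hspa9*, *Hsph1*, *Hsp90aa1* and *Hsp90ab1*. They were chosen by name, and all 10 were found among the 24456 genes of the count tables. The RNA came from whole testes of wild-type (WT) mice and of mice homozygous for a knockout (KO) of *Atad2*, which encodes a bromodomain protein of chromatin. The comparison addressed transcription in the KO testis while the first post-meiotic cells appear. The KO allele carries a *lacZ* reporter that is spliced to an upstream exon, and a ubiquitous Cre driven by the *CMV* promoter was used to remove the selection cassette and the next exon. The deletion is therefore present in every cell type of the KO testis and not in germ cells alone. The mouse strain was not given in the labels. Groups were 4 WT and 4 KO libraries at day 20 after birth, 4 and 4 at day 22, 2 and 2 at day 24, and 2 and 2 at day 26, and no group received a treatment. A name such as WT_d20_2 stands for the second WT library of day 20.

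HSP70 proteins are ATPases that bind exposed hydrophobic stretches of unfolded proteins. J-domain proteins bring clients and speed up ATP hydrolysis, and nucleotide exchange factors, among them the HSP110 relatives encoded by *Hspa4*, *Hspa4l* and *Hsph1*, release the ADP so that the client can leave. HSP90 proteins take partly folded clients over from HSP70 with the help of adaptor co-chaperones. The testis is known for germ cell versions of this machinery: *Hspa2* is strongly expressed from meiosis onwards and is needed for spermatocytes to complete it, *Hspa1l* is transcribed in spermatids, and HSP90α is needed for male meiosis.

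Between 10709667 and 19491935 read pairs were counted in genes in each library. The targeted gene was lower in KO at every day: *Atad2* stood at group means of 84.8 to 125 CPM (counts relative to the TMM-scaled library size) in WT and 34.0 to 52.7 CPM in KO, with no overlap at any day. The difference was called at days 20, 22 and 24 but missed the threshold at day 26 (-1.25 on the log2 scale, adjusted p = 0.0628, edgeR). WT_d20_2 and KO_d22_4 stood apart from the other libraries. WT_d20_2 had 13.7% of its pairs aligned to several places and 3.26% of its gene counts on mitochondrial ribosomal RNA, the highest of the 24, and KO_d22_4 had 4.74% and 0.170%, the lowest. Libraries also differed in the 2 epididymis markers fixed for this check, *Crisp1* and *Adam7*. They summed to 50.4 to 685 CPM in 8 libraries (WT_d20_3, KO_d20_3, WT_d22_4, KO_d22_1, WT_d24_2, KO_d24_2, WT_d26_2 and KO_d26_2) and to 0 to 13.9 CPM in the other 16. The tests were therefore repeated on those 16 libraries, a choice made after seeing the data that leaves 1 library per group at days 24 and 26, and these values stand beside the results they touch. The libraries also differed in the germ cell stages they held. A round spermatid score, the mean centred log2 CPM of 8 marker genes, rose in WT from -3.91 ± 0.717 (SD, n = 4) at day 20 to 2.7 ± 0.0489 (n = 2) at day 26. It was higher in KO than in WT at day 20 (-1.25 ± 1.34, n = 4) and at day 22 (0.796 ± 0.780 against -0.180 ± 0.262, n = 4 each). In whole testis, fewer cells of a type and less RNA per cell cannot be told apart.

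All 10 genes were above the detection filter. Per kilobase of annotated exon, *Hsp90aa1* had the highest mean of them in every group and *Hspa2* the next, although in KO at day 26 they did not differ beyond their spread (563 ± 41.4 and 554 ± 0.443, n = 2). Stretches shared with other genes, whose reads were discarded, make up 53.1% of *Hsp90aa1* and 40% of *Hspa8*, so the levels of both and the place of *Hspa8* in the order are uncertain. In WT at day 20, *Hsp90aa1* stood at 526 ± 150 CPM per kilobase (SD, n = 4), *Hspa2* at 241 ± 97.1 and *Hspa5* at 204 ± 17.1. The difference between *Hspa2* and *Hspa5* was within the spread of *Hspa2*. *Hsp90ab1* (168 ± 22.3) and *Hspa8* (158 ± 8.71) came next and did not differ beyond their spread. *Hspa9* (69.3 ± 5.82) and *Hspa4* (65.0 ± 16.8) formed a lower pair, followed by *Hspa4l* (34.3 ± 3.54), *Hsph1* (6.77 ± 0.694) and, last, *Hspa1l* (0.248 ± 0.106). By day 26 the WT order had 1 large move: *Hspa1l* reached 70.3 ± 12.5 CPM per kilobase (n = 2), close to *Hspa4* (74.8 ± 7.05) and *Hspa4l* (66.6 ± 4.37), while *Hsph1* (8.33 ± 0.769) became the lowest. Each length sums alternative exons, so a value per kilobase is low for any shorter transcript in use. The sum against the longest transcript was 11792 against 9479 bases for *Hspa4l*, 7266 against 4764 for *Hsph1*, 4310 against 3049 for *Hspa9* and 4301 against 3158 for *Hspa8*. Only for *Hspa1l* were the 2 lengths equal (2472 bases). The order of genes with near values can depend on this choice.

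*Hspa1l*, an HSP70 gene known for its expression in spermatids, lies on chromosome 17 from 34972703 to 34979285 on the plus strand (mm10, GENCODE M21), beside the stress-inducible *Hspa1a* and *Hspa1b*. Of the members it had the largest log2 difference with age in both genotypes and between KO and WT at days 20, 22 and 24 and over the mean of days, but not at day 26, when *Hspa2* (0.36) and *Hspa8* (0.32) differed by more than its 0.28, none of them called. An antisense gene, *Gm10501*, overlaps it on the other strand; the counts used the strand. Of its 75-base stretches, 7.09% also occur in *Hspa1a* or *Hspa1b*, so a small part of its reads could not be placed. Its promoter is shown because the gene rose from near 0 within 6 days. The 250 bases before its start, chr17:34972453-34972702 on the plus strand (RefSeq, GRCm38.p6), hold the letters TGACG, the core of a CRE element, at position -71 relative to the start, and CCAAT at position -57, both in capitals.

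Hspa1l: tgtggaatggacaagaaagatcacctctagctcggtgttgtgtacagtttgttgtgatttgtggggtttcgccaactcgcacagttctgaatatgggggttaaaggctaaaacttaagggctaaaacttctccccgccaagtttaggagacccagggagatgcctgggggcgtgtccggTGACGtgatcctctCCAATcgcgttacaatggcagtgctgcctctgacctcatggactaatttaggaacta

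TGACG was present on either strand in 17.8% of 32851 promoter windows of this length and CCAAT in 33.8%. No TATAA was found in the *Hspa1l* window, which 22.8% of windows hold. Neither was an inverted pair of heat shock element units, written GAANNTTC or TTCNNGAA, which 12.8% hold. A match or its absence describes the letters only.

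In WT at day 20, the 4 libraries held 9, 3, 16 and 7 counts of *Hspa1l*, or 0.707, 0.316, 0.925 and 0.504 CPM. In KO at day 20 the values were 1.89, 1.18, 3.30 and 5.01 CPM, from 26, 18, 50 and 74 counts. All 4 KO libraries were above all 4 WT libraries. At day 22 the WT libraries stood at 4.58, 1.59, 2.80 and 2.45 CPM and the KO libraries at 6.05, 45.5, 16.9 and 5.83 CPM. Again every KO library was higher, and KO_d22_2 was far above the other 3. At day 24 *Hspa1l* stood at 40.5 and 36.8 CPM in WT and at 96.4 and 56.2 in KO. At day 26 it stood at 196 and 152 CPM in WT and at 209 and 215 in KO, the day with the smallest log2 difference between genotypes (0.28).

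**Figure D1:**
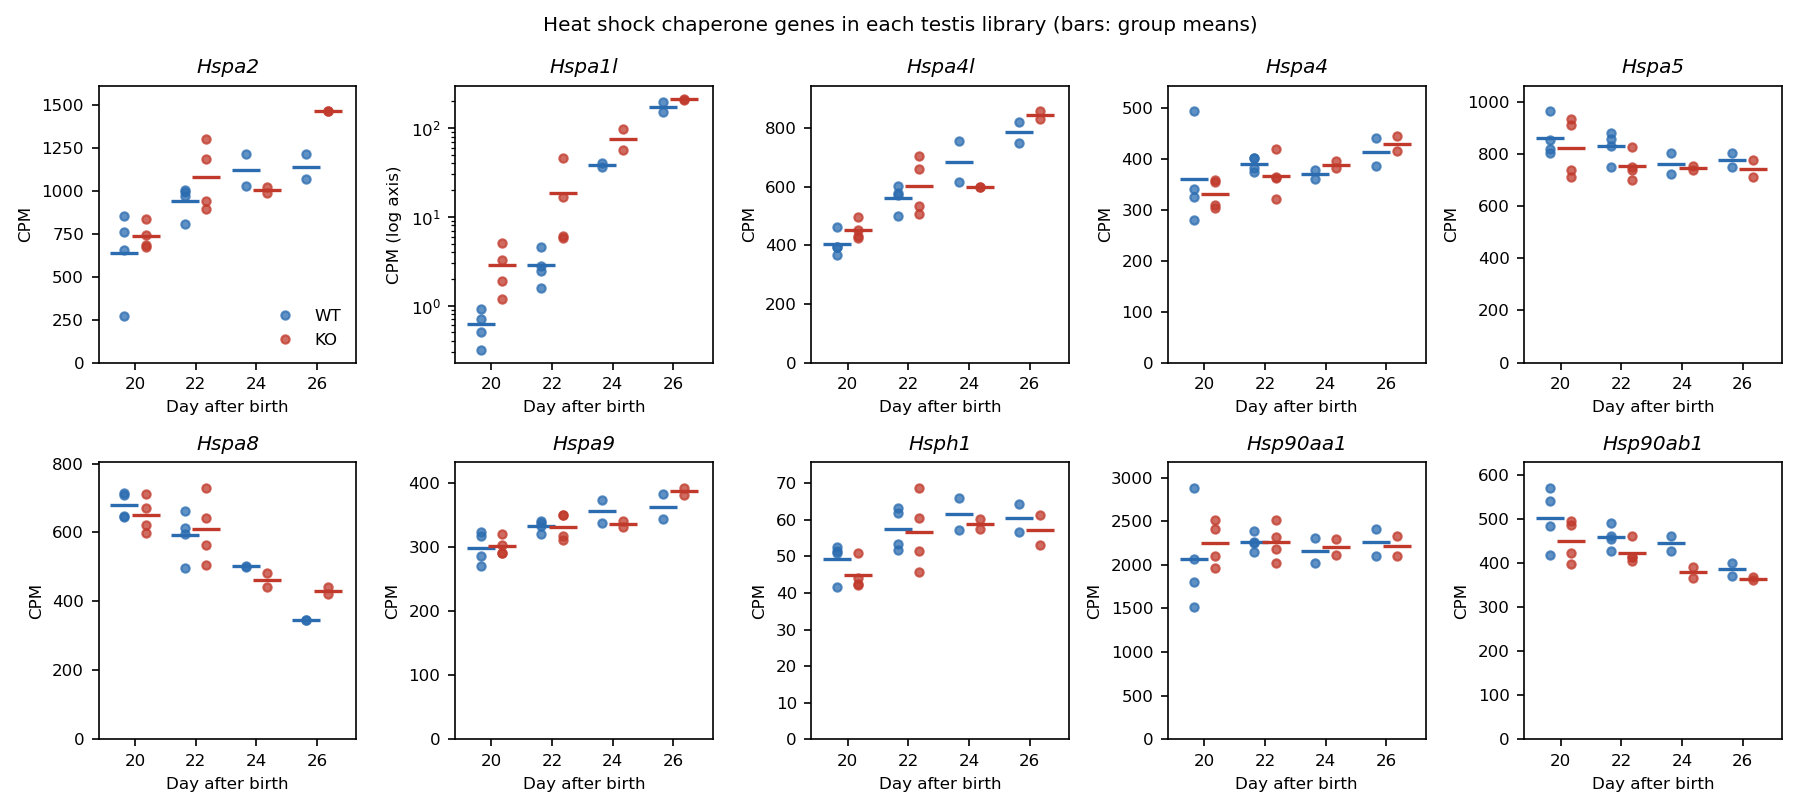
Levels of the 10 genes in CPM against day after birth, 1 point per library, with short bars at group means (WT blue, KO red); the axis of *Hspa1l* is logarithmic and the others start at 0. *Hspa1l* climbs at every step in both genotypes with KO above WT at each day, *Hspa2* and *Hspa4l* rise, *Hspa8* falls, and *Hsp90aa1* keeps group means between 2067 and 2262 CPM.

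The rise of *Hspa1l* with age was the steepest of the family. Group means in WT went from 0.613 ± 0.262 CPM (SD, n = 4) at day 20 to 2.85 ± 1.26 (n = 4), 38.6 ± 2.67 (n = 2) and 174 ± 30.9 (n = 2). The ratios of successive means were 4.66, 13.5 and 4.50, and no adjacent groups overlapped. In KO the means went from 2.84 ± 1.69 to 18.6 ± 18.7, 76.3 ± 28.5 and 212 ± 4.47 CPM, again without overlap between adjacent days. Day 26 exceeded day 20 by 8.05 on the log2 scale in WT (SE 0.75, adjusted p = 1.76e-07, edgeR quasi-likelihood test) and by 6.21 in KO (SE 0.65, adjusted p = 1.19e-06). The WT fold rests on the few counts of day 20.

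*Hspa1l* was also the one member called between genotypes. KO exceeded WT by 2.7 on the log2 scale at day 22 (SE 0.56, adjusted p = 0.018, edgeR), a 6.48-fold difference, while 2.51% of all tested genes were called at that day. Over the mean of the 4 days the difference was 1.52 (SE 0.34, adjusted p = 0.0164), a 2.87-fold difference, and 7.08% of all genes were called. It was 2.12 at day 20 (SE 0.78, adjusted p = 0.2), 0.98 at day 24 (SE 0.68, adjusted p = 1) and 0.28 at day 26 (SE 0.66, adjusted p = 0.914). The difference over the mean of days and that at day 22 were of like size in the 16 libraries low in epididymis markers, 1.66 and 2.94, but were not called (adjusted p = 0.317 and 0.0815). In the joint edgeR test for unequal KO effects among days, *Hspa1l* had an adjusted p of 0.573, so the smaller values at the later days were not shown to differ from the earlier ones.

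Markers of spermatids moved with the genotype in the same libraries. All 8 round spermatid genes were detected in every group, and their summed level ranged from 9.79 to 33.8 CPM in WT and from 37.6 to 149 CPM in KO at day 20, and from 109 to 157 and from 158 to 442 CPM at day 22. The 8 elongating spermatid genes, all above 0 in every group, summed to 2.0 to 10.4 CPM in WT and 7.0 to 134 CPM in KO at day 20, and to 51.3 to 125 and 112 to 741 CPM at day 22. At day 24 they summed to 670.2 and 546 CPM in WT and to 1719 and 908 CPM in KO, without overlap, whereas the genotypes overlapped at days 20 and 22. At day 26 they summed to 3321 and 2199 CPM in WT and 3489.7 and 3568.5 CPM in KO. The stage score, round spermatid minus pachytene spermatocyte score, was -3.40 ± 0.675 in WT and -1.08 ± 1.43 in KO at day 20 (n = 4 each), and -0.254 ± 0.222 and 0.737 ± 0.731 at day 22 (n = 4 each). At days 24 and 26 it was 1.69 and 2.36 in WT and 1.76 and 2.19 in KO. KO_d22_2, with the most *Hspa1l* of its group, had the highest stage score of that group at 1.61. Over the 24 libraries, which share day and genotype, log2 CPM of *Hspa1l* had a Pearson r of 0.986 with the elongating spermatid score and 0.926 with the stage score.

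With the stage score as a covariate, the difference at day 22 was 1.28 (adjusted p = 0.168), over the mean of days 0.50 (adjusted p = 0.372) and at day 20 -0.65 (adjusted p = 0.805). The score itself differed between genotypes, so the effect of genotype and the stage of the testis cannot be told apart here. The day 22 call was also lost without KO_d22_2 (1.74, adjusted p = 0.0732), WT_d22_2 (2.52, adjusted p = 0.0611), WT_d22_3 (2.69, adjusted p = 0.075) or WT_d22_4 (2.62, adjusted p = 0.0946), and in the day 22 libraries alone (2.71, adjusted p = 0.146). With the replicate number as a block the day 22 difference was 2.62 and was not called either (adjusted p = 0.0592, edgeR). The call over the mean of days was lost without WT_d24_2 (1.52, adjusted p = 0.052). At day 20 DESeq2 called the gene (2.19, adjusted p = 0.012), as did edgeR without KO_d22_2 (2.12, adjusted p = 0.0341).

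**Figure D2:**
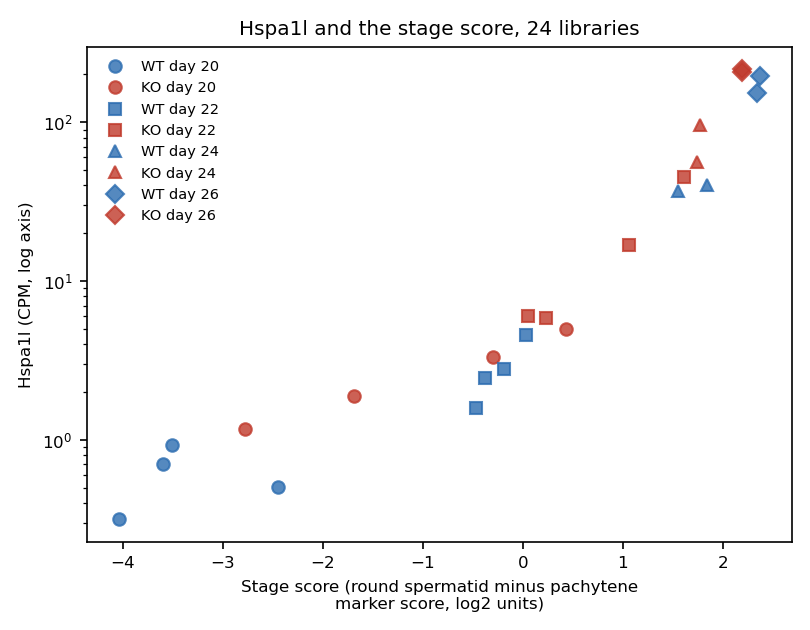
*Hspa1l* in CPM (logarithmic axis) against the stage score in the 24 libraries, by genotype (colour) and day (symbol). The level broadly increases with the score, though not in every library, from 0.316 CPM at the lowest score of -4.04 to 152 and 196 CPM at the highest scores of 2.35 and 2.37, and the KO libraries of days 20 and 22 lie further along than the WT libraries of the same day, except that KO_d20_2 lies below WT_d20_4.

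*Hspa2*, the meiotic HSP70, has its gene on chromosome 12 from 76404176 to 76406938 on the plus strand. At day 20 its level was 856, 271, 759 and 658 CPM in WT and 672, 687, 744 and 838 CPM in KO. The low WT value belongs to WT_d20_2. At day 22 it stood at 995, 808, 1004 and 969 CPM in WT and 943, 1189, 896 and 1306 CPM in KO, and the genotypes overlapped. At day 24 the WT libraries (1214 and 1027 CPM) were above the KO libraries (1024 and 989), and at day 26 the KO libraries (1466 and 1464) were above the WT libraries (1070.0 and 1216).

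From day 20 to day 26 *Hspa2* rose by 0.85 on the log2 scale in WT (SE 0.26, adjusted p = 0.0132, edgeR) and by 0.99 in KO (SE 0.26, adjusted p = 0.00349), fold changes of 1.80 and 1.99. The WT rise was 0.55 without WT_d20_2, still called, and was no longer called without WT_d26_2 (0.75, adjusted p = 0.109). In the 16 libraries low in epididymis markers the rises were 0.85 and 1.04 and were not called (adjusted p = 0.185 and 0.0938). Between genotypes the gene was not called at any day. The difference was 0.36 at day 26 (SE 0.31, adjusted p = 0.691), with a 95% interval from -0.25 to 0.97. It was called only when the 4 libraries of day 26 were fitted alone (0.37, adjusted p = 0.0323).

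*Hspa4l* encodes an HSP110-type exchange factor enriched in male germ cells and lies on chromosome 3 from 40744495 to 40796103 on the plus strand. Its levels at day 20 were 464, 365, 395 and 395 CPM in WT and 426, 451, 431 and 496 in KO. At day 26 they were 748 and 821 CPM in WT and 857 and 829.6 in KO, and neither genotype overlapped its day 20 values. The rise was 0.96 on the log2 scale in WT (SE 0.14, adjusted p = 7.61e-06, edgeR) and 0.90 in KO (SE 0.14, adjusted p = 2.17e-05), fold changes of 1.94 and 1.87. Both calls held in the 16 libraries low in epididymis markers (0.88 and 0.94, adjusted p = 0.014 and 0.00998). Between genotypes its differences ran from -0.19 at day 24 to 0.16 at day 20 and none passed the test.

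*Hspa8*, the constitutive HSP70 of the cytosol, moved in the opposite direction with age. It lies on chromosome 9 from 40800984 to 40810087 on the plus strand, and 3 small nucleolar RNA genes, *Snord14c*, *Snord14d* and *Snord14e*, sit within it. Its WT levels were 646, 647, 714 and 709 CPM at day 20, 596, 663, 498 and 613 at day 22, 499.8 and 504 at day 24, and 346 and 345 at day 26. Its KO levels were 711, 622, 670.2 and 599 CPM at day 20, 641, 564, 730.1 and 507 at day 22, 443 and 482 at day 24, and 421 and 441 at day 26. The gene fell by 0.97 on the log2 scale in WT (SE 0.14, adjusted p = 9.72e-06, edgeR) and by 0.60 in KO (SE 0.14, adjusted p = 0.00136). In the 16 libraries low in epididymis markers the WT change was -0.95 (adjusted p = 0.0157) and the KO change -0.58 (adjusted p = 0.0991). At day 26 both KO libraries were above both WT libraries, and the difference of 0.32 (SE 0.16) had an adjusted p of 0.443. With the day 26 libraries alone it was 0.33 (adjusted p = 0.0339).

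*Hsp90ab1*, the constitutive HSP90 (chromosome 17, 45567775 to 45573271, minus strand), also fell with age. In WT it went from 482, 418, 570.2 and 539 CPM at day 20 to 400.4 and 371 at day 26, and in KO from 396, 422, 486 and 495 to 367 and 361. The decrease was 0.38 on the log2 scale in WT (SE 0.13, adjusted p = 0.0199, edgeR), and the call was lost without WT_d26_1 (adjusted p = 0.0614) or WT_d26_2 (adjusted p = 0.165) and in the WT libraries alone (-0.37, adjusted p = 0.0701). In KO the change was -0.30 (SE 0.13, adjusted p = 0.0493), a call that was lost in 19 of the 24 fits without 1 library, by DESeq2 (-0.22, adjusted p = 0.106), with DESeq2 size factors (-0.22, adjusted p = 0.155) and with no filter (-0.28, adjusted p = 0.107). Neither call held in the 16 libraries low in epididymis markers (-0.26 and -0.22, adjusted p = 0.411 and 0.473). Its difference between genotypes had the same sign at all 4 days, from -0.08 to -0.23, and over the mean of days it was -0.15 (SE 0.06, unadjusted p = 0.0287, adjusted p = 0.157).

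Marker lists of other cells moved in both directions over the same days. From day 20 to day 26 the Sertoli cell score, over 6 genes, went from 0.202 ± 0.162 to -0.295 ± 0.0676 in WT and from 0.158 ± 0.0734 to -0.521 ± 0.0904 in KO. The spermatogonia score, over 7 genes, went from 0.426 ± 0.0981 to -0.309 ± 0.0571 and from 0.220 ± 0.166 to -0.494 ± 0.0778 (n = 4 at day 20 and n = 2 at day 26 in each). All genes of both lists were above 0 in every group. The Sertoli genes summed to 374 to 472 CPM at day 20 and 254 to 262 CPM at day 26 in WT, and to 352 to 398 and 212 to 229.5 CPM in KO. The spermatogonia genes summed to 221 to 274 and 145 to 154 CPM in WT, and to 195 to 245 and 124 to 125 CPM in KO. Leydig cell markers moved the other way, and their 6 genes summed to 260 to 376 CPM at day 20 and 1095 and 1805 CPM at day 26 in WT, and to 277 to 683 and 872 and 999 CPM in KO. The score of 5 macrophage and blood genes went from -0.137 ± 0.298 to 0.183 ± 0.445 in WT and from 0.142 ± 0.310 to -0.0557 ± 0.0742 in KO, within its spread. The part of these shifts in the lower *Hspa8* and *Hsp90ab1* levels was not tested.

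*Hsp90aa1* encodes HSP90α (chromosome 12, 110690605 to 110702728, minus strand). Its level was 1798, 2886, 1517 and 2068 CPM in WT and 2518, 2415, 2098 and 1962 CPM in KO at day 20, and the highest value came from WT_d20_2. At day 26 it was 2105 and 2413 CPM in WT and 2329 and 2099 in KO. Groups overlapped in every comparison of genotypes. The change from day 20 to day 26 was 0.13 in WT (SE 0.18, adjusted p = 0.592, edgeR), and the KO-WT difference over the mean of days was 0.03, with a 95% interval from -0.15 to 0.21. The 75-base stretches it shares are mostly with the pseudogene *Gm12346*, and those of *Hspa8* with *Gm15459*.

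*Hspa5* encodes BiP, the HSP70 of the endoplasmic reticulum, and lies on chromosome 2 from 34771970 to 34777547 on the plus strand. Its group means stayed between 745 ± 44.4 CPM (KO at day 26, n = 2) and 861 ± 72.4 CPM (WT at day 20, n = 4). The age difference was -0.15 on the log2 scale in both genotypes (adjusted p = 0.375 in WT and 0.35 in KO, edgeR). *Hspa4*, an HSP110-type exchange factor (chromosome 11, 53259814 to 53300457, minus strand), had group means between 331 ± 28.5 (KO at day 20, n = 4) and 429 ± 20.8 CPM (KO at day 26, n = 2). Its age difference was 0.20 in WT (adjusted p = 0.319) and 0.37 in KO (adjusted p = 0.0542). Without WT_d20_2, in which *Hspa4* reached 493 CPM, the WT difference was 0.35 (adjusted p = 0.0141) and the KO difference 0.37 (adjusted p = 0.00488). The KO difference was also called by DESeq2 (0.46, adjusted p = 0.0141), with DESeq2 size factors (0.46, adjusted p = 0.0223), with no filter (0.40, adjusted p = 0.0428), in the KO libraries alone (0.37, adjusted p = 0.0167) and without WT_d20_1 or WT_d20_3 (adjusted p = 0.0464 and 0.0361). It was 0.43 (adjusted p = 0.21) in the 16 libraries low in epididymis markers.

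The *Hspa4* promoter is printed beside that of *Hspa1l* because it also holds TGACG and its window is likewise free of GENCODE exons. The window is chr11:53300480-53300729 on the minus strand (RefSeq, GRCm38.p6), with TGACG in capitals at position -69 and, from the other strand, as CGTCA at position -56.

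Hspa4: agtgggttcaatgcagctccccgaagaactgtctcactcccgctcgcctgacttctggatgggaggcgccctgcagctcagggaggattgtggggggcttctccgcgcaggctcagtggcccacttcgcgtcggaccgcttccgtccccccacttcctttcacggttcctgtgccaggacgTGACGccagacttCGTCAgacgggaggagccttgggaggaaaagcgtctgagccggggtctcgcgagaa

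Promoter windows were matched for 6 of the 10 genes, the others of these being *Hspa2*, *Hspa4l*, *Hspa5* and *Hsph1*. *Hspa8*, *Hspa9*, *Hsp90aa1* and *Hsp90ab1* are not in the table used. TGACG occurred on either strand in *Hspa2* (position -139), *Hspa4l* (-247) and *Hspa5* (-157) as well. *Hspa5* held CCAAT at 4 places and was the only one with TATAA, at position -26. *Hsph1* was the only one with a pair of heat shock element units, TTCNNGAA, at position -33 from the first of its 2 annotated starts. By GENCODE, exons of the same gene cover 114 of the 250 bases in *Hspa2*, 231 in *Hspa4l*, 120 in *Hspa5* and 40 in this *Hsph1* window. The TATAA of *Hspa5* and the pair in *Hsph1* lie within those exons.

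*Hspa9*, whose product mortalin is the HSP70 of mitochondria, rose slightly with age. Its level went from 323, 317, 270.2 and 286 CPM at day 20 to 343 and 383 at day 26 in WT, and from 321, 290.3, 291 and 303 to 393 and 382 in KO. The rise was 0.28 on the log2 scale in WT (SE 0.10, adjusted p = 0.032, edgeR) and 0.36 in KO (SE 0.10, adjusted p = 0.00576). The WT call was lost in 10 of the 24 fits without 1 library, with 0.20 (adjusted p = 0.292) without WT_d26_2 as the lowest value, and in the WT libraries alone (0.29, adjusted p = 0.114). The KO call was lost without KO_d26_1 (0.33, adjusted p = 0.0579). In the 16 libraries low in epididymis markers the differences were 0.15 and 0.40 (adjusted p = 0.569 and 0.104).

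*Hsph1*, the stress-inducible HSP110 gene (chromosome 5, 149614287 to 149636376, minus strand), was the lowest member per kilobase at day 26. In WT it stood at 51.1, 41.7, 52.6 and 51.4 CPM at day 20 and at 56.6 and 64.5 at day 26, and in KO at 42.4, 42.3, 51.0 and 44.1 and at 61.3 and 53.2. The differences of 0.30 in WT (SE 0.15, adjusted p = 0.11, edgeR) and 0.35 in KO (SE 0.15, adjusted p = 0.0523) missed the threshold. In KO the gene was called by DESeq2 (0.44, adjusted p = 0.0138), with DESeq2 size factors in edgeR (0.44, adjusted p = 0.0196) and without WT_d20_2, KO_d20_3, KO_d22_1 or KO_d22_4 (adjusted p = 0.0392, 0.0376, 0.0384 and 0.0348).

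Across the family, 4 of 10 genes rose from day 20 to day 26 in WT and 2 fell, while 24.4% of all tested genes were called higher and 18.1% lower. In KO the same 4 genes, *Hspa2*, *Hspa1l*, *Hspa4l* and *Hspa9*, rose and the same 2, *Hspa8* and *Hsp90ab1*, fell, against 27.2% and 24.9% of all genes. The median difference of the 10 genes was 0.24 in WT and 0.36 in KO, beside -0.04 and -0.07 over all tested genes. With WT_d26_2 left out, 3 members were called in WT. The 16 libraries low in epididymis markers gave 3 called members in WT, *Hspa1l*, *Hspa4l* and *Hspa8*, and 2 in KO, *Hspa1l* and *Hspa4l*. The 8 round spermatid markers rose over the same days, from a summed 9.79 to 33.8 CPM to 759.8 to 815 CPM in WT and from 37.6 to 149 CPM to 775 to 786 CPM in KO, and their part in the rise of *Hspa2*, *Hspa4l* and *Hspa9* was not tested.

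**Figure D3:**
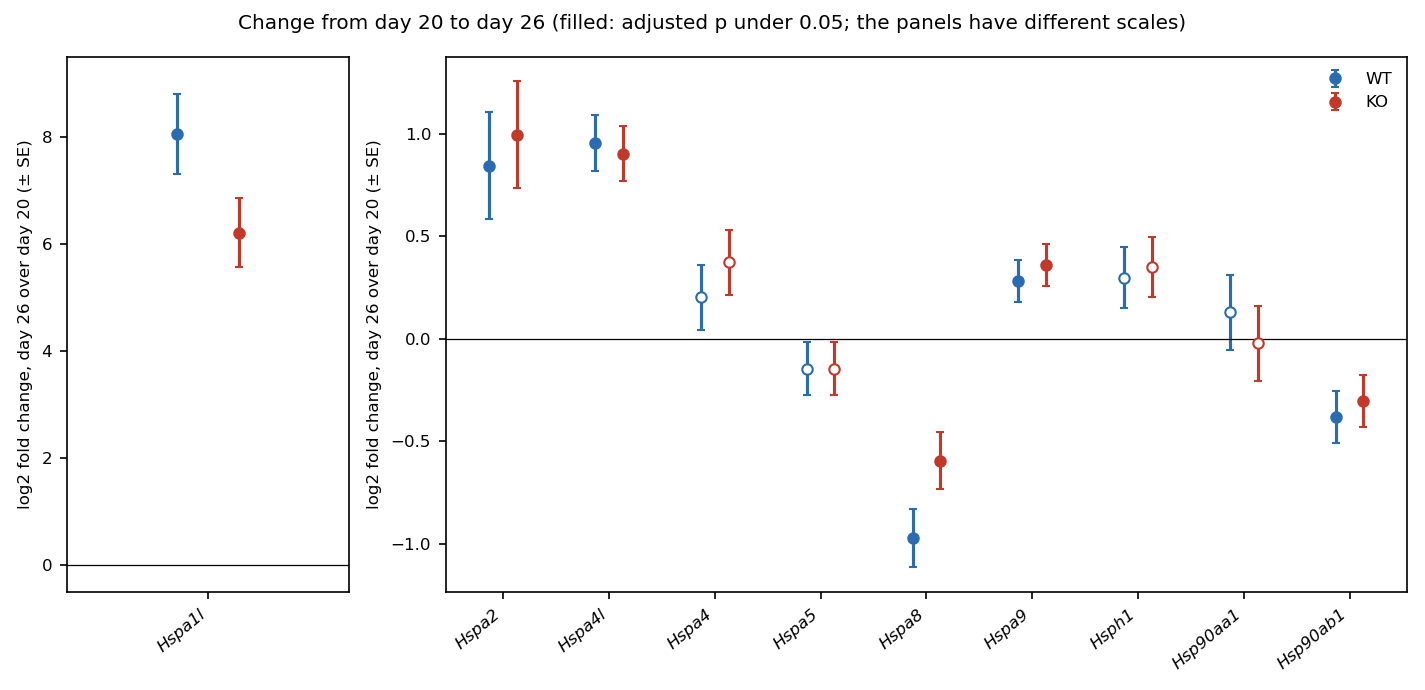
Log2 fold change from day 20 to day 26 in WT (blue) and KO (red), with SE bars; filled points passed an adjusted p of 0.05, and *Hspa1l* has an axis of its own. The same 6 genes are filled in both genotypes, *Hspa1l* at 8.05 and 6.21 and the other 5 between -0.97 and 0.99.

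Between genotypes, no member was called at day 20, where 3.34% of all genes were called and 1 member, *Hspa1l*, had an unadjusted p under 0.05, and DESeq2 called that 1 gene. None was called at day 24 (0.0874% of all genes) or day 26 (0.0466%), where no member had an unadjusted p under 0.05 and DESeq2 called none. The joint test over days called no member (0.00582% of all genes), none at an unadjusted p under 0.05 and none by DESeq2. Of all 17170 tested genes, 2141 had an unadjusted p under 0.05 at day 20 (edgeR), 898 at day 24, 1979 at day 26 and 1556 in the joint test. Over the mean of days the 95% intervals of the 9 members other than *Hspa1l* lay between -0.27 and 0.42 on the log2 scale. The median difference of the 10 genes was 0.02 over the mean of days, beside 0.01 over all tested genes.

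Values of the genotypes did not overlap for 1 of 10 members at day 20 and 1 of 10 at day 22, *Hspa1l* in both, beside 4.71% and 8.09% of all genes. With 2 libraries a group, the values of 6 members did not overlap at day 24 and those of 5 at day 26, where 44% and 59% of all genes did the same. *Hspa1l* was the one member with KO above WT at all 4 days, and the share of all genes that did the same was not counted. KO values of *Hspa2*, *Hspa4l* and *Hspa8* were below WT at day 24 and above it at day 26, as 4.46% of all genes were. Those of *Hspa4* were above it at day 24, and those of *Hsp90ab1* were below it at both.

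**Figure D4:**
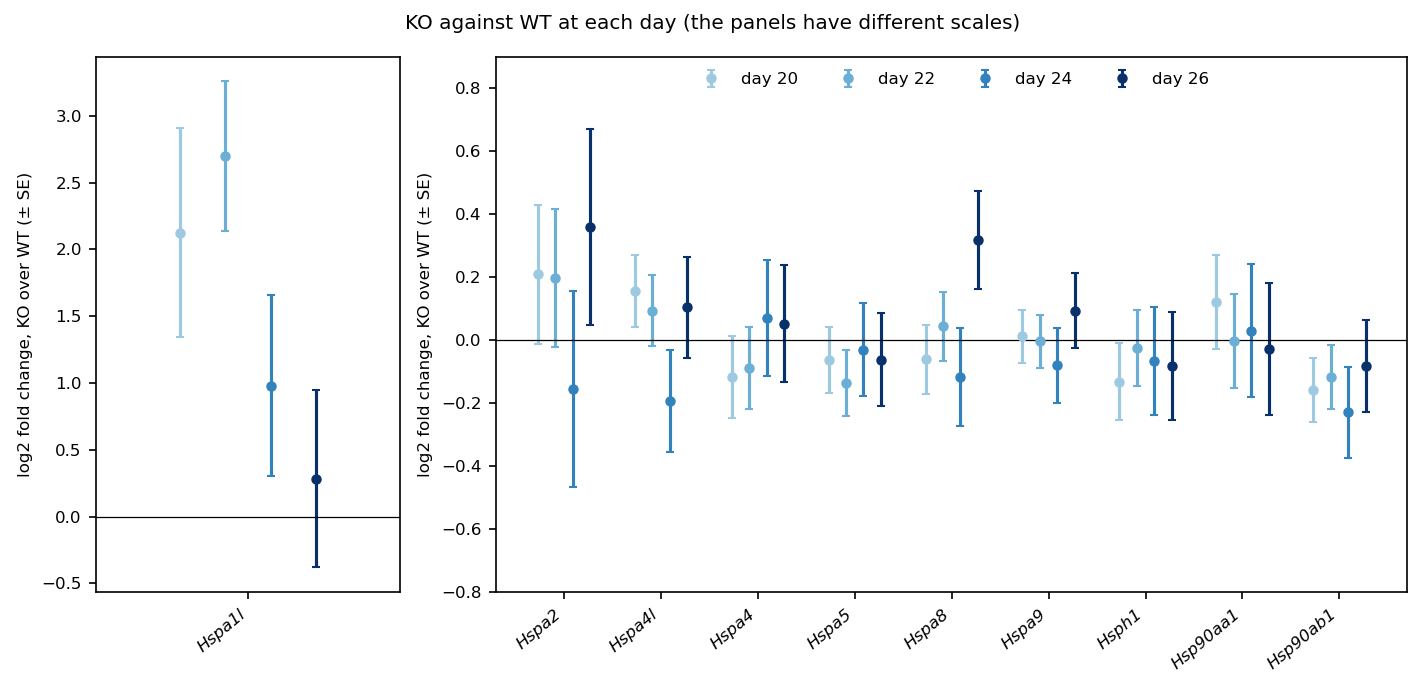
Log2 fold change of KO over WT at each day with SE bars, *Hspa1l* on the left and the other 9 genes on the right on an expanded scale. *Hspa1l* goes from 2.12 and 2.7 at days 20 and 22 to 0.28 at day 26, while the other genes stay between -0.23 and 0.36.

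The wider chaperone machinery was described with 112 genes in 8 lists, of which 109 passed the filter (*Dnajc22*, *Hsf4* and *Hspb3* did not). From day 20 to day 26, 36 of the 109 rose and 12 fell in WT, beside 24.4% and 18.1% of all tested genes, and 44 rose and 9 fell in KO, beside 27.2% and 24.9%. Their median difference was 0.15 in WT and 0.19 in KO. Between genotypes, over the mean of days, 4 of the 109 were higher in KO and 2 lower, a share no higher than the 7.08% of all tested genes, and their median was 0.03.

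J-domain co-chaperones, the partners that load HSP70, made up the largest list, and 20 of the 46 tested rose in WT with age and 4 fell. Those with the lowest p were *Dnajb3* (2.40 on the log2 scale, SE 0.16, adjusted p = 5.13e-09, edgeR), *Dnaja4* (2.73), *Dnajb4* (1.47) and *Dnajb14* (1.54). *Dnajb3* went from 49.5 ± 7.76 CPM (SD, n = 4) at day 20 to 261 ± 4.10 (n = 2) at day 26. Of nucleotide exchange factors, 6 of 10 rose and 2 fell. *Bag5*, a BAG-domain factor that releases ADP from HSP70, rose by 2.06 (SE 0.16, adjusted p = 2.3e-08), from 76.8 ± 12.3 to 319.5 ± 23.4 CPM, with *Bag3* at 1.01, *Bag1* at 0.76 and *Sil1*, the exchange factor of BiP, at 0.68.

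Of the adaptor co-chaperones of HSP70 and HSP90, 3 of 23 were higher at day 26 and 2 lower in WT. *Ttc4* rose by 0.82 and *Fkbp6*, a meiotic immunophilin, fell by 0.97 (SE 0.14, adjusted p = 6.89e-06, edgeR). *Pih1d1* (0.48) and *Fkbp4* (0.43) were also called, but not without WT_d26_1 and WT_d26_2 respectively (0.43, adjusted p = 0.0591, and 0.34, adjusted p = 0.126). Of the heat shock transcription factors, *Hsf2* rose by 1.06 (SE 0.17, adjusted p = 3.82e-05) and *Hsf5* by 0.47 (adjusted p = 0.0181), while *Hsf1* stood at 0.11 (adjusted p = 0.653). The *Hsf5* call was lost without WT_d20_2, WT_d20_3 or WT_d26_2 (adjusted p = 0.0605, 0.0528 and 0.191) and in the WT libraries alone (0.0602).

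Among small heat shock proteins 3 of 7 rose and 1 fell in WT, with *Hspb7* at 1.54, *Hspb9*, a testis-expressed member, at 1.38, and *Cryab* at -0.78 (adjusted p = 0.0245, edgeR). *Hspb8* stood at 1.20 (adjusted p = 0.0174), a call lost without WT_d20_1 (adjusted p = 0.0524) or WT_d26_1 (0.14). The *Cryab* call was lost without WT_d20_3 (adjusted p = 0.0596), WT_d26_1 (0.0731) or WT_d26_2 (0.16). Chaperonins split, with 2 of 11 higher and 2 lower: *Cct6b*, the testis form of a CCT subunit, rose by 1.1 (SE 0.16, adjusted p = 7.8e-06) and *Cct7* by 0.64, while *Hspe1*, the mitochondrial cofactor of HSP60, fell by 0.66 and *Cct6a* by 0.45. *Cct6a* was not called without WT_d26_1 (adjusted p = 0.171) or WT_d26_2 (adjusted p = 0.0899), in the WT libraries alone (0.117) or with DESeq2 size factors (0.0533). Of the other HSP70 and HSP110 genes, 1 of 7, *Hspa14*, changed (-0.49, SE 0.12, adjusted p = 0.00268), and neither other HSP90 gene was called in WT (*Hsp90b1* -0.29, *Trap1* 0.07). In the 16 libraries low in epididymis markers the WT age calls named above were lost for *Hspa14*, *Sil1*, *Pih1d1*, *Fkbp4*, *Hsf5*, *Cryab*, *Cct7*, *Hspe1* and *Cct6a* (adjusted p from 0.0566 to 0.405).

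**Figure D5:**
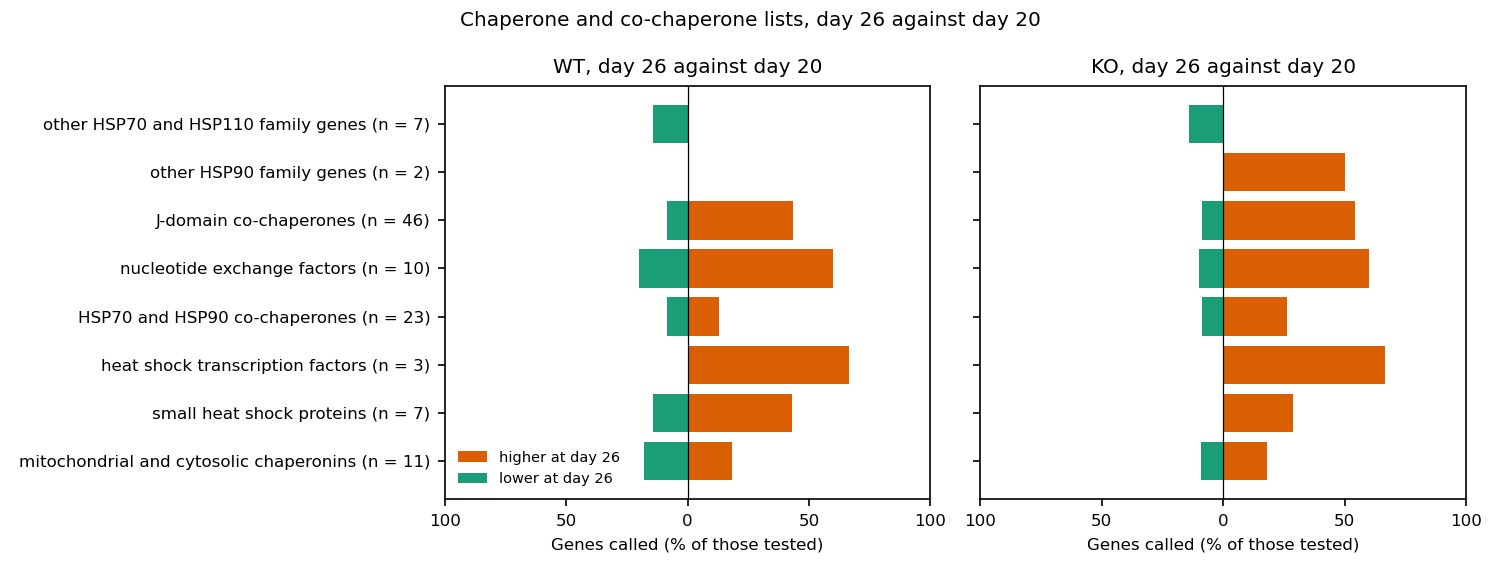
Share of the tested genes of each chaperone list that passed an adjusted p of 0.05 from day 20 to day 26, higher to the right and lower to the left, in WT and KO. J-domain proteins and exchange factors extend mostly to the right, with 20 higher and 4 lower of 46 and 6 higher and 2 lower of 10 in WT.

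Between genotypes the called genes of the lists included 3 J-domain genes that, like *Hspa1l*, rose with age in both genotypes. Over the mean of days *Dnajb7* was higher in KO by 1.86 on the log2 scale (SE 0.43, adjusted p = 0.0184, edgeR), *Dnajb8* by 2.0 (SE 0.51, adjusted p = 0.0291) and *Dnajc5b* by 1.56 (SE 0.41, adjusted p = 0.0304). *Dnajb7* stood at 1.20 ± 0.671 CPM in WT and 11.9 ± 11.4 in KO at day 22 (n = 4 each), and at 76.3 ± 3.87 and 75.3 ± 4.43 at day 26 (n = 2 each). *Dnajb8* stood at 0.541 ± 0.194 and 5.26 ± 5.64 CPM at day 22 and at 50.4 ± 9.40 and 64.3 ± 12.5 at day 26. All 3 genes included libraries at 0 in WT at day 20. Their fold changes there depend on the default prior count of the edgeR fit, not on that of log2 CPM.

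The stage score moved with these 3 differences too. With it as a covariate they were 0.46 for *Dnajb7*, -0.09 for *Dnajb8* and 0.31 for *Dnajc5b*, and none was called (adjusted p = 0.479, 0.959 and 0.681). Without WT_d24_2 none of them was called either (adjusted p = 0.0572, 0.0747 and 0.0864). Leaving out single libraries ended the *Dnajb8* call in 7 of 24 fits and the *Dnajc5b* call in 8 of 24. In the 16 libraries low in epididymis markers the differences of the 3 genes were 1.78, 2.0 and 1.36 and none was called (adjusted p = 0.38, 0.425 and 0.5). *Fkbp8* was higher by 0.19 (adjusted p = 0.0412), a call lost in 14 of 24 fits without 1 library (adjusted p up to 0.121), with the stage score (0.17, adjusted p = 0.222) and in the 16 libraries low in epididymis markers (0.16, adjusted p = 0.668).

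*Hspb8*, the small heat shock protein that acts with BAG3, was lower in KO over the mean of days, by a log2 difference of -1.09 (SE 0.21, adjusted p = 0.00461, edgeR). It stood at 6.28 ± 2.23 CPM in WT and 2.05 ± 0.808 in KO at day 22 (n = 4 each) and at 7.54 ± 1.22 and 1.98 ± 0.122 at day 26 (n = 2 each). The call was kept with the stage score (adjusted p = 0.0207) and under every other alternative, but not in the 16 libraries low in epididymis markers (-0.80, adjusted p = 0.382). The score of 5 peritubular cell genes was also lower in KO, at 0.257 ± 0.264 in WT and -0.430 ± 0.420 in KO at day 22 and at -0.230 ± 0.191 and -0.729 ± 0.161 at day 26. That of 3 endothelium genes was 0.057 to 0.258 in WT and -1.06 to -0.265 in KO at day 22, and -0.262 and -0.017 in WT against -0.637 and -0.557 in KO at day 26, without overlap on either day. KO_d22_4 had the lowest value of both lists, -0.994 and -1.06, and without it the *Hspb8* difference over the mean of days was -1.04 and still called. The part of these lists in the *Hspb8* difference was not tested.

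*Hspd1*, which encodes mitochondrial HSP60, was lower (log2 difference -0.29, SE 0.07, adjusted p = 0.0232), and that call was lost without WT_d24_2, KO_d24_2, WT_d26_1, WT_d26_2 or KO_d26_2 (adjusted p = 0.0691, 0.0707, 0.0521, 0.0543 and 0.0841), with the stage score (-0.26, adjusted p = 0.136) and in the 16 libraries low in epididymis markers (-0.21, adjusted p = 0.608). *Hspa1a* (-0.22, adjusted p = 0.467) and *Hspa1b* (-0.28, adjusted p = 0.337), the stress-inducible neighbours of *Hspa1l*, did not pass the test.

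The genes most like each germ cell member were found by Pearson r of log2 CPM over the 24 libraries, among 15424 genes. For *Hspa1l* they were *Trim17* (0.993), *4933411K16Rik* (0.993) and *Ccin* (0.992), for *Hspa2* they were *Crat* (0.991), *Agbl5* (0.990) and *Trafd1* (0.990), and for *Hspa4l* they were *Fem1c* (0.984), *Fndc3a* (0.982) and *Ppp2r5c* (0.981). The closest gene to *Hspa8* was *Tuba1a* (0.930) and to *Hsp90aa1* it was *Eif2s1* (0.916). The libraries share their day and depth, and these coefficients are a description.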

How the data were processed

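The authors aligned read pairs of ribosome-depleted, stranded total RNA from whole testis to mm10 with STAR 2.7.11b and counted pairs in exons by strand with HTSeq, discarding pairs with several alignments. Each library's deposited table gives raw read-pair counts by gene symbol, without normalization or pooling. The gene model version was not given in the sources used here. Tallies of unassigned pairs (5 per table) were left out of library sizes and tests. Pairs overlapping no exon took 45.1% to 58.5% of a table, pairs with several alignments 4.74% to 13.7% and ambiguous pairs 0.132% to 0.229%. Groups and replicate numbers came from the labels, which give more day 20 replicates than the study's text.

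Counts were scaled by TMM and tested in R 4.3.3 with the edgeR 4.0.16 quasi-likelihood test (limma 3.58.1), robust, with 1 coefficient per group over all 24 libraries, after filterByExpr at a minimum count of 10 (17170 genes). Tests were two-sided. P-values were adjusted over all tested genes by Benjamini-Hochberg, and a gene was called at an adjusted p under 0.05. SE was the log2 fold change over the square root of F. Log2 CPM used a prior count of 2. The code was tested on simulated data. All 28 within-group pairs of libraries differed by more than sampling noise (chi-square per gene from 5.07 to 129). Labels do not say that replicates were separate animals, though the study calls them biological replicates. If they were not, p-values measure only the spread between these samples. The members and gene lists were chosen with earlier results of these data known. Up to 4 genes per list were named by lowest p over the mean of days and up to 4 by lowest p with age in WT, and the 3 nearest genes by correlation (mean of at least 1 CPM) for each of *Hspa2*, *Hspa1l* and *Hspa4l* (1 for *Hspa8* and *Hsp90aa1*). Alternatives were DESeq2 1.42.0, its size factors in edgeR, no filter, a replicate block, the stage score as covariate, each day or genotype alone, each library left out and, added after seeing the data, the 16 libraries with under 20 CPM of epididymis markers. Positions are 1-based, from GENCODE M21, and promoters are from RefSeq (GRCm38.p6), of which only windows free of GENCODE exons are printed.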

Additional observations from a re-analysis of the deposited data

Results flagged for a closer look

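*Hsph1* in WT_d20_2 stood at 41.7 CPM, apart from the other 3 WT libraries of day 20 at 51.1 to 52.6 CPM. It was the 1 value that lay so far out among 40 groups of 4 libraries, and chance alone marks about 1 in 20 such groups. The same library had 13.7% of its pairs aligned to several places, the most of all 24.

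For 3 members every KO library was below every WT library at day 24 and above it at day 26, as did 4.46% of all 17170 tested genes. With 2 libraries a group, KO and WT did not overlap for 44% of tested genes at day 24 and 59% at day 26. The log2 fold changes were -0.16 and 0.36 for *Hspa2*, -0.19 and 0.10 for *Hspa4l* and -0.12 and 0.32 for *Hspa8*. The difference between these 2 days was not tested. The joint test over all 4 days gave adjusted p = 0.983, 0.914 and 0.807 (edgeR).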

How the results depend on the processing

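In the deposited data, the age calls of *Hspa1l* and *Hspa4l* held in all alternatives run for both genotypes. Those of *Hspa8* held except in KO in the 16 libraries low in epididymis markers, and those of *Hspa2* except in these libraries and, in WT, without WT_d26_2 (0.75, adjusted p = 0.109, edgeR). For *Hspa9*, *Hspa4*, *Hsph1* and *Hsp90ab1* the age call depended on the setting in at least 1 genotype. The causes were not tested. Depth limits *Hspa1l* most, with 3 counts in its lowest library. Of the alternative values for members and named genes, 93 changed sign, 129 lost a call and 20 gained one, while 3068 kept both.

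The count of all genes called between KO and WT was 573 at day 20, and became 901 with DESeq2, 333 with a replicate block, 6 with the stage score as covariate and 5 with the day 20 libraries alone. It was 431 at day 22 and became 749, 235, 100 and 69 under the same settings. It was 15 at day 24 and became 40 with DESeq2 and 39 with the stage score. It was 8 at day 26, 0 higher and 8 lower, and became 153 with DESeq2 (77 higher and 76 lower), 17 with the block, 36 with the stage score and 2104 with the day 26 libraries alone. Over the mean of days it was 1215, with 1827 by DESeq2 and 264 with the stage score. The joint test called 1 gene, 273 by DESeq2 and 0 with the block or the stage score.

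Among members, DESeq2 called 1 at day 20, against 0. At day 22 the count went from 1 to 0 with the block, the stage score or that day alone. At day 26 it went from 0 to 2 with that day alone, and over the mean of days from 1 to 0 with the stage score.

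Keeping only the 16 libraries low in epididymis markers, chosen after seeing the data, tested fewer samples. It called 3 genes at day 20, 77 at day 22, 0 at days 24 and 26, 54 over the mean of days and 0 in the joint test, and 3221 (of 7292) and 3708 (of 8955) with age in WT and KO. Members called went from 1 to 0 at day 22 and over the mean of days, from 6 to 3 with age in WT and from 6 to 2 in KO. Signs changed for *Hspa9* at day 20 (-0.023), for *Hspa9* (0.068), *Hsph1* (0.14) and *Hsp90aa1* (0.068) at day 22, for *Hspa5* (0.055) and *Hsp90aa1* (-0.13) at day 24, for *Hspa5* (0.081), *Hsph1* (0.15) and *Hsp90aa1* (0.18) at day 26, for *Hspa4* over the mean of days (0.013), and for *Hsp90aa1* with age (-0.096 in WT and 0.059 in KO).

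Leaving out each library in turn gave 151 (without WT_d20_3) to 780 genes at day 20 and 0 to 1 members (1 without KO_d22_2), 60 (without WT_d22_4) to 858 (without KO_d22_1) genes at day 22 and 0 to 1 members, and 0 (without KO_d24_1) to 24 genes at day 24. It gave 0 (without KO_d26_1 or KO_d26_2) to 103 (without WT_d20_2) genes at day 26, 302 (without WT_d24_2) to 1737 genes over the mean of days with 0 to 1 members, and 0 to 140 (without KO_d20_2) in the joint test. For age it gave 4724 (without WT_d26_2) to 7971 genes and 3 to 7 members in WT, and 5829 (without KO_d26_2) to 10147 genes and 4 to 8 members in KO. Groups left with 1 library were assumed to vary like the others.

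Other changes of sign were as follows. With the stage score the day 20 difference was -0.069 for *Hspa2*, -0.65 for *Hspa1l*, 0.019 for *Hspa4* and 0.23 for *Hspa5*, the day 22 difference 0.068 for *Hsp90aa1*, and the mean 0.027 for *Hspa4*, 0.0300 for *Hspa5* and -0.088 for *Dnajb8*. At day 22, with DESeq2 size factors, no filter, DESeq2 and that day alone, *Hspa9* gave 0.018, 0.048, 0.018 and 0.013 and *Hsp90aa1* gave 0.018, 0.046, 0.018 and 0.012, and *Hsph1* gave 0.0299 with no filter. *Hsp90aa1* gave 0.0175 at day 26 with DESeq2 size factors and with DESeq2. Its KO age difference was 0.067 with each of these and 0.0044 with no filter.

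Leaving out each library in turn, the differences that changed sign stayed within these ranges. At day 20 they were -0.058 to 0.38 for *Hspa2*, -0.22 to 0.056 for *Hspa4*, -0.13 to 0.0021 for *Hspa5* and -0.025 to 0.0498 for *Hspa9*. At day 22 they were -0.053 to 0.12 for *Hspa8*, -0.0296 to 0.027 for *Hspa9*, -0.13 to 0.064 for *Hsph1* and -0.057 to 0.047 for *Hsp90aa1*. At day 24 they were -0.10 to 0.063 for *Hspa5*, -0.15 to 0.041 for *Hsph1* and -0.047 to 0.13 for *Hsp90aa1*, and at day 26 -0.0304 to 0.15 for *Hspa4*, -0.10 to 0.017 for *Hspa5*, -0.16 to 0.037 for *Hsph1* and -0.11 to 0.073 for *Hsp90aa1*. Over the mean of days they were -0.038 to 0.0304 for *Hspa4* and -0.0061 to 0.026 for *Hspa9*, and with age -0.026 to 0.29 in WT and -0.11 to 0.036 in KO for *Hsp90aa1*.

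The labels do not say whether the replicate numbers pair the libraries. Deviations from the group mean correlated between same-numbered WT and KO libraries by 0.07 to 0.41 at day 20, -0.46 to -0.03 at day 22, and 0.39 and 0.42 at days 24 and 26. At day 22 no WT library correlated best with its own number, and at day 20 all but WT_d20_2 did. All did at days 24 and 26, where the deviations of a group mirror each other. The libraries high in epididymis markers shared a number between genotypes at days 20, 24 and 26, but not at day 22. With the replicate block, *Hspa1l* at day 22 was 2.62 (adjusted p = 0.0592), the age difference of *Hspa9* in WT 0.26 (adjusted p = 0.0518), of *Hsph1* 0.40 in WT (adjusted p = 0.0285) and 0.44 in KO (adjusted p = 0.0129), and of *Hsp90ab1* in KO -0.21 (adjusted p = 0.112, edgeR). *Dnajb8* and *Dnajc5b* lost their calls over the mean of days (adjusted p = 0.0582 and 0.061). The block changed no other call of a member or named gene.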
